A study of Oryza sativa Japonica Group with 20 samples.

Results

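The regions described here are stretches of the rice genome (Oryza sativa, Japonica group) where peaks of the histone mark H3K27me3 were called in both slr1 libraries and in none of the other 4 libraries. Chromosomes 1 to 12 were cut into windows of 1000 bp from their first base. A window was kept where peaks covered at least 200 bp of it in both slr1 lists and 0 bp in both GA-labelled and both control-labelled lists. The members were thus chosen by the called peaks of all 6 libraries, so their number, their place and the enrichment of their peaks are descriptions of these lists and carry no test. The rule kept 319 windows, which joined into 272 regions, out of 27557 windows marked in both slr1 lists and 48003 windows with a peak base in any list.

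H3K27me3 is the trimethylation of lysine 27 on histone H3. It is laid down by Polycomb repressive complex 2 and goes with silent genes, in plants often genes of development and of tissue identity. The mark usually starts at nucleation sites and spreads along the chromatin into domains, so a change in it can show as a domain that reaches farther or as a domain at a site that had none. Rice has a single DELLA protein, SLR1, which holds back growth in the nucleus until the hormone gibberellin (GA) arrives. When GA is sensed, DELLA proteins are marked with ubiquitin and degraded, so loss of SLR1 and added GA both lift DELLA repression.

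The slr1 seedlings carried a knockout of SLR1 and were 12 days old. The GA-labelled seedlings were wild type and had received 100 uM GA through the roots for 6 h before chromatin was taken. The control-labelled seedlings were wild type without GA. Seedlings of all groups grew on diluted Murashige and Skoog medium, and whole-seedling chromatin mixes many cell types. Each group had 2 H3K27me3 libraries, and no label says whether these came from separate plants or pools. The sources used here do not give the age of the GA-labelled and control-labelled seedlings, and the only wild-type libraries with H3K27me3 peaks were those of the GA experiment. A difference between slr1 and the other groups therefore cannot be told apart from a difference between the 2 sets of seedlings. The series also named 12 RNA libraries and 2 input libraries, which were not analysed here.

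The names stored inside the peak lists go against the labels of 2 groups. The peaks of the control-labelled lists carry names with "6h" and those of the GA-labelled lists carry names with "CK", the label of the controls, and which of the 2 is right was not tested. The rule asks the same of both groups, so the slr1-only members do not depend on which is which. The groups are called GA-labelled and control-labelled throughout, and no direction between them is drawn.

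The lists differed in size, and the 2 slr1 lists most of all. They held 13598 and 11699 peaks in slr1, 13137 and 13640 in the GA-labelled lists, and 13427 and 13614 in the control-labelled lists. The peaks covered 27.8 and 21.3 Mb in slr1, 22.4 and 24.1 Mb in the GA-labelled lists, and 25.1 and 27.1 Mb in the control-labelled lists. Library 1 of slr1 thus covered the most and slr1 library 2 the least of all 6. The median fold enrichment of a peak, the authors' ratio of signal to background, was 2.87 and 2.80 in slr1, against 2.92 and 3.11 in the GA-labelled and 3.15 and 3.18 in the control-labelled lists. A peak list holds no value where no peak was called, so a window outside the peaks of a library may still carry the mark below the caller's threshold, and read depth is not in the lists.

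Few of the windows marked in slr1 were marked in slr1 alone. The 319 members were 1.16% of the 27557 windows marked in both slr1 lists (95% Clopper-Pearson interval 1.03 to 1.29%, which covers counting error only). By the same rule, 56 windows were marked only in the GA-labelled lists, 0.198% of the 28298 windows marked in both of them. The control-labelled lists alone marked 264 windows, 0.838% of their 31502. The slr1 share was the highest of the 3, but the control-labelled share, from libraries of wild-type seedlings, was of the same order.

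The 2 slr1 libraries contributed unequally to the members. Library 1 of slr1 marked 2286 windows that held no peak base of the other groups, and 14.0% of these were also marked in slr1 library 2. Library 2 marked 496 such windows, and 64.3% of these were also marked in library 1. The GA-labelled libraries shared 22.9% of 245 and 10.2% of 548 such windows, and the control-labelled libraries 46.7% of 565 and 31.5% of 838. Most windows that slr1 library 1 marked outside the peaks of the other groups were thus not marked in its replicate.

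Within a member window, peaks usually covered part of it and more of it in slr1 library 1. The median cover was 674 bp in library 1 and 415 bp in library 2. Library 1 covered more bases in 230 windows, library 2 in 66, and both the same number in 23. In 92 windows the whole window lay in peaks of library 1, in 25 in peaks of library 2, and in 23 in peaks of both. Of the members, 89 had a lower cover of under 300 bp and 101 of at least 500 bp. Just outside the minimum, 79 windows without a peak base elsewhere had a lower cover of at least 100 bp, the fullest at 197 bp. Another 158 windows met the minimum in both slr1 lists but had between 1 bp and just under 200 bp in the fullest of the other lists.

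Most joined regions were as small as a region can be under the rule. Of the 272 regions, 237 were 1000 bp long, 27 were 2000 bp, 6 were 3000 bp and 2 were 5000 bp. All 56 regions marked only in the GA-labelled lists were 1000 bp long. Of the 254 regions marked only in the control-labelled lists, 245 were 1000 bp, 8 were 2000 bp and 1 was 3000 bp. Both regions of 5000 bp thus came from slr1, 1 on chromosome 2 and 1 on chromosome 12.

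The regions were sorted by whether the slr1 peaks over them overlapped a called peak of another group. A region was called attached where the slr1 peak over it, in both slr1 lists, also overlapped a peak of another group, and separate where it did so in neither list. A separate region can still lie close to a peak of another group. On chromosome 8, the separate region at 8524001 to 8526000 lay 11 bp from one. The classes were drawn up after the values were seen. Of the 272 regions, 104 were attached (38.2%), 126 were separate (46.3%), and 42 (15.4%) were attached in 1 of the slr1 lists. Among regions marked only in the GA-labelled lists, 12 of 56 were attached (21.4%) and 40 were separate (71.4%). Among those marked only in the control-labelled lists, 56 of 254 were attached (22.0%) and 175 were separate (68.9%). These shares describe 2 lists per group and were not tested against each other, since the regions and the classes come from the same peaks. The library with the widest cover, slr1 library 1, was 1 of the 2 behind the slr1 share, and the part of that cover in it was not tested.

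**Figure D1:**
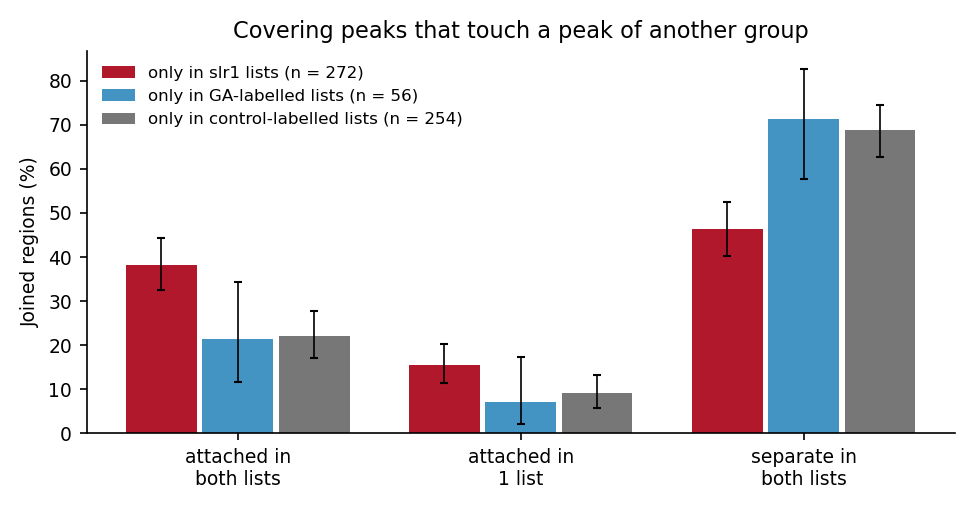
Share of joined regions (%) whose covering peaks overlapped a peak of another group in both lists, in 1 list or in neither, for regions marked only in the slr1, GA-labelled or control-labelled lists; bars are shares and whiskers 95% exact binomial intervals, which cover counting error only. The slr1-only regions were attached in both lists in 38.2% of cases, against 21.4% for GA-labelled and 22.0% for control-labelled regions.

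Distances to the peaks of the other groups were measured without classes. Of the slr1-only regions, 161 (59.2%) lay within 1000 bp of a peak of another group, 189 within 2000 bp and 214 within 5000 bp. The median distance to the nearest such peak was 567.5 bp, and 41 regions had none within 10000 bp. The farthest lay 120365 bp from it. Within 1000 bp lay 41.1% of the regions marked only in the GA-labelled lists and 48.8% of those marked only in the control-labelled lists, with median distances of 2366 and 1062 bp. The nearest other peak of an slr1-only region was in a GA-labelled list in 98 cases and in a control-labelled list in 173. The control-labelled peaks also covered more, 25.1 and 27.1 Mb against 22.4 and 24.1 Mb, so no preference is read from these counts.

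The attached regions were mostly edges of the peaks that the slr1 peaks shared with another group. In 94 of 104, the overlapped peaks of the other groups lay on 1 side of the region, so that the slr1 peak ran past their end. Peaks of the other groups beyond the far end of the slr1 peak were not counted. An edge can therefore also lie in a gap between domains. In 3, overlapped peaks of the other groups lay on both sides of the region. In 2 of these, on chromosomes 2 and 7, 1 slr1 peak in each list ran across the region, and in the other, also on chromosome 2, the slr1 peaks broke inside it. Reach was measured past the outermost peak of another group that the slr1 peak overlapped. In the 94 edges, its median was 825 bp in slr1 library 1 and 615 bp in slr1 library 2. The largest values, 4897 and 4454 bp, came from the region at 17269001 to 17274000 on chromosome 2. There the GA-labelled and control-labelled lists all had further peaks on its left, the nearest ending at 17268056. That region thus lay in a gap between peaks of the other groups. The median distance to the nearest peak of another group was 155 bp for attached regions and 4514.5 bp for separate ones.

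The 104 attached regions belonged to 103 domains, taken as the span of the slr1 peaks over them. On chromosome 2, the domain at 17269252 to 17280979 lay wholly inside the longest domain, which joined 2 slr1 peaks in each list. Both were counted. These spans ran between 0.577 and 21.9 kb with a median of 3.29 kb, and 11 exceeded 10 kb. The median length covered by peaks was 3.27 and 2.33 kb in slr1, against 1.25 and 1.38 kb in the GA-labelled and 1.48 and 1.50 kb in the control-labelled lists. As a share of the span this was 100 and 78.5% in slr1, 39.1 and 40.2% in the GA-labelled lists and 42.6 and 45.4% in the control-labelled lists. The span was defined on slr1 peaks, so the higher slr1 cover follows from the choice. The GA-labelled lists held no peak in 19 and 18 of the domains and the control-labelled lists in 20 and 8. A peak in all 6 lists was found in 74 domains, and 29 lacked one in at least 1 other list. A peak of 1 other list was enough for a region to be attached, and the overlap could be small. On chromosome 8, the domain at 17479636 to 17480212 held 0.177 kb of peak in control-labelled library 2 and none in the other wild-type lists.

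**Figure D2:**
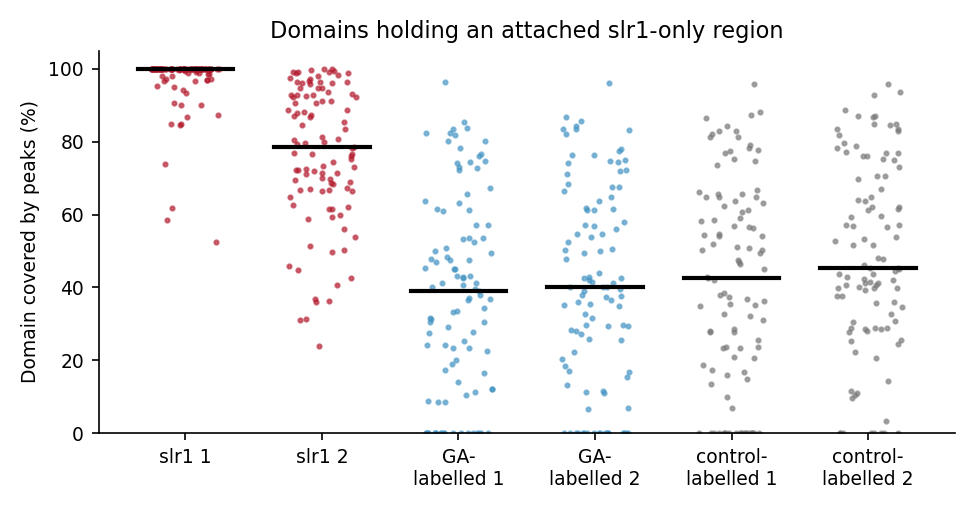
Percent of each of the 103 domains with an attached slr1-only region that was covered by peaks, by library; each point is 1 domain and the line is the median. The medians were 100 and 78.5% in slr1, 39.1 and 40.2% in the GA-labelled and 42.6 and 45.4% in the control-labelled lists, and the domains were defined by the slr1 peaks.

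The enrichment of the whole domain was compared in 2 forms, and they gave different pictures. Over the 74 domains with peaks in all 6 lists, the median of the length-weighted fold enrichment was 3.62 and 3.09 in slr1, 3.13 and 3.49 in the GA-labelled lists, and 3.57 and 3.61 in the control-labelled lists. Both slr1 values lay above all 4 other values in 16 of the 74 domains and below all 4 in 14. Divided by the median fold enrichment of all peaks of the list, the medians were 1.26 and 1.10 in slr1, 1.07 and 1.12 in the GA-labelled lists, and 1.13 and 1.14 in the control-labelled lists. In that form both slr1 values were above all 4 others in 27 domains and below all 4 in 10. Fold enrichments of different lists depend on each library's depth and background. The domains were also chosen for slr1 peaks that ran past those of the other lists, so neither form is free of that choice.

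The attached region under the slr1 peaks with the highest enrichment was a sharp example of an edge. On chromosome 3, a member window at 18198001 to 18199000 lay under slr1 peaks at 18198566 to 18203035 and 18198622 to 18202984, with fold enrichments of 7.98 and 6.48. The GA-labelled peaks of the same domain began at 18199261 and 18199254, with folds of 7.09 and 8.55. The control-labelled peaks began at 18199245 and 18199228, with folds of 9.14 and 9.43. All 6 peaks ended between 18202981 and 18203035, so the lists differed at the left end, and both control-labelled folds were above both slr1 folds. The genome build behind these coordinates is not known from the sources used here.

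Another edge, on chromosome 11, had the same form on the other side. The member window at 20078001 to 20079000 lay under the right ends of slr1 peaks at 20076159 to 20078397 and 20076228 to 20078309, with folds of 6.33 and 5.23. The GA-labelled peaks ended at 20077909 and 20077835, with folds of 5.95 and 7.34. The control-labelled peaks ended at 20077955 and 20077867, with folds of 7.07 and 7.78. Library 2 of slr1 reached 354 bp past the farthest of them and library 1 reached 442 bp past it.

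At a further edge on chromosome 11 the difference was longer. The slr1 peaks over the window at 28751001 to 28752000 began at 28751107 and 28751505, with folds of 6.56 and 5.23. The GA-labelled peaks of that domain began at 28753041 and 28752935, with folds of 6.01 and 7.32. The control-labelled peaks began at 28752706 and 28752663, with folds of 7.26 and 8.16. The 6 right ends lay between 28754874 and 28754982, close together as on chromosome 3.

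All 10 regions under the slr1 peaks with the highest enrichment, ranked by the lower of the 2 slr1 folds, were attached. Each fold is that of the whole slr1 peak, which over an attached region also takes in the part shared with another group. The fold of the slr1-only stretch by itself is not in the lists. Apart from these 3 edges they lay on chromosomes 2, 5, 10 and 12, with lower folds between 4.27 and 4.91. On chromosome 10 the window at 17621001 to 17622000 lay under peaks with folds of 4.91 and 4.91. On chromosome 5 the window at 5033001 to 5034000 lay 9 bp from a peak of another group, under peaks with folds of 4.39 and 4.74. On chromosome 12, windows starting at 9874001, 19309001 and 22828001 lay 179, 427 and 98 bp from a peak of another group. The one at 22828001 was the end of a long domain, with slr1 peaks of 18379 and 18357 bp.

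The separate regions were covered by weaker and shorter peaks than the rest of the slr1 lists. Where several peaks of a list lay over a region, the highest fold was taken. The median fold over separate regions was 2.47 in slr1 library 1 and 2.35 in library 2, against 2.88 and 2.81 for the slr1 peaks that met no member. Over attached regions it was 3.18 and 2.75, and over regions attached in 1 list 2.71 and 2.30. The median peak was 828 and 489 bp long over separate regions and 3277 and 1910 bp over attached ones, against 1093 and 1003 bp for the other slr1 peaks. In rank, the median separate region stood at percentile 29.0 and 21.8 of its list by fold enrichment, and the median attached region at percentile 60.1 and 47.8. The peak over an attached region must reach into a peak of another group, so its fold and length also describe the shared domain.

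The authors' −log10 q, which rises with the certainty of a peak, was also lower over separate regions than over attached ones. The highest −log10 q was taken where several peaks of a list lay over a region. Its median was 2.15 and 1.72 over separate regions, 2.96 and 1.55 over regions attached in 1 list, 4.47 and 3.15 over attached regions, and 4.02 and 3.91 over the other slr1 peaks. In library 2 it was lowest over the regions attached in 1 list. Values below 2 were found for 44.4 and 69.8% of separate regions in libraries 1 and 2, for 16.7 and 73.8% of regions attached in 1 list, and for 10.6 and 29.8% of attached regions. In the other slr1 peaks the shares were 19.9 and 20.3%. The lowest value in any list was 1.00, so many separate regions were close to the threshold at which the authors' lists ended. With slr1 peaks limited to a −log10 q of at least 2, a limit chosen after the values were seen, 111 regions were left, of which 71 were attached and 31 separate. The −log10 q over an attached region also describes the shared domain, so a difference between the classes can follow from how they were defined.

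Peaks over separate regions were also weak in the other groups. Regions that only the GA-labelled lists marked and that were separate had median folds of 2.28 and 2.39, against 2.92 and 3.12 for the other peaks of these lists. Separate regions of the control-labelled lists had 2.16 and 2.22, against 3.17 and 3.20. The share with a −log10 q below 2 was 57.5 and 45.0% in the GA-labelled and 53.7 and 45.7% in the control-labelled lists. The median peak over separate regions was longer in slr1, at 828 and 489 bp, than in the GA-labelled lists, at 344 and 362.5 bp, or the control-labelled lists, at 344 and 382 bp.

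**Figure D3:**
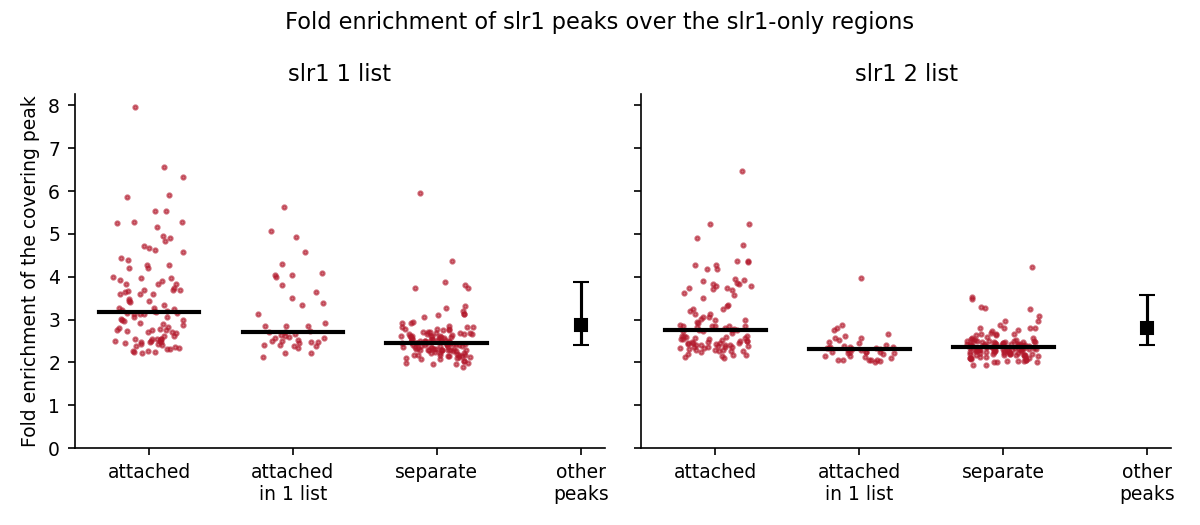
Fold enrichment, by the authors' peak caller, of the slr1 peak with the highest fold over each slr1-only region, by class and slr1 library; each point is 1 region, the line is the median, and the square with whiskers gives the median and quartiles of all other peaks of the list. Medians over separate regions were 2.47 and 2.35, below the 2.88 and 2.81 of the other peaks.

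The separate region with the highest enrichment lay on chromosome 4 at 3250001 to 3251000, under slr1 peaks at 3250113 to 3250589 and 3250103 to 3250569. These peaks were 477 and 467 bp long, had folds of 5.96 and 4.24 and a −log10 q of 28.4 and 16.2. Their starts and ends were nearly the same in both libraries. By the lower of its 2 folds it was followed at some distance by a region at 3.53. The nearest peak of another group was 9455 bp away, and none of the GA-labelled or control-labelled lists held a peak base within 5000 bp of the window. The median length of all slr1 peaks was 1099.5 and 996 bp.

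Other separate regions with high folds were seen on chromosomes 11, 1 and 6. On chromosome 11, peaks at 5114164 to 5115752 and 5114157 to 5115779 had folds of 3.74 and 3.53, with a control-labelled peak 384 bp from the member. On chromosome 1, the region at 16912001 to 16914000 held 2 peaks of each slr1 list and lay 58353 bp from a peak of another group. Its left peaks had folds of 3.75 and 2.58 and its right peaks 2.89 and 3.49, so its place in the ranking rests on different peaks in the 2 libraries. On chromosome 6, the region at 12366001 to 12367000 had folds of 3.88 and 3.29 and lay 85818 bp from one. The peaks there were short, 533 and 418 bp in the 2 slr1 libraries.

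Of the 10 separate regions with the highest lower fold, 4 lay on chromosome 11, 3 on chromosome 6 and 1 each on chromosomes 1, 4 and 7. The 4 on chromosome 11 started at 4661001, 4935001, 5114001 and 5737001, all within little more than 1 Mb. Their lower folds were between 2.80 and 3.53, and the nearest other peaks were 26610, 2299, 384 and 59031 bp away. This ranking of separate regions was added after the values were seen.

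**Figure D4:**
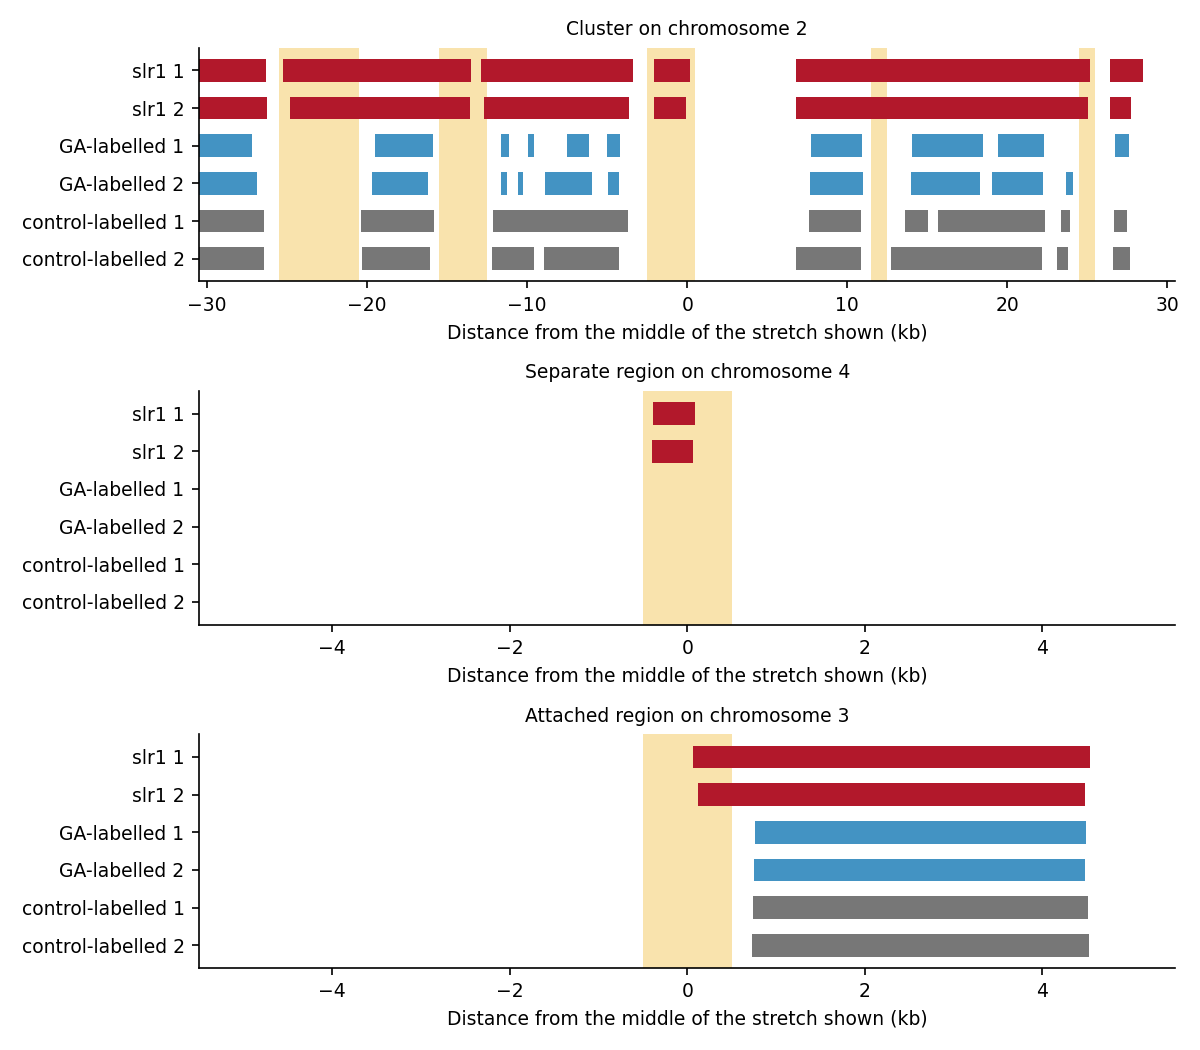
Called peaks of the 6 libraries (bars) around slr1-only members (shaded), by distance from the middle of the stretch shown (kb), for the cluster on chromosome 2, the separate region with the highest fold on chromosome 4 and the attached region with the highest fold on chromosome 3. The slr1 peaks cover 48.1 and 46.1 kb of the stretch on chromosome 2, against 21.4 and 22.6 kb for GA-labelled and 29.8 and 30.9 kb for control-labelled peaks. The stretches hold slr1-only members by choice, so the higher slr1 cover follows in part from it.

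The members were spread over all 12 chromosomes, but not evenly. Chromosome 11 had 47 member windows, 2.04% of its windows marked in both slr1 lists (interval 1.51 to 2.71%), and chromosome 12 had 41, or 1.94% (1.39 to 2.62%). Chromosome 9 followed with 30 (1.58%) and chromosome 4 with 31 (1.45%). Chromosome 3 had the smallest share, with 16 windows and 0.592% (0.339 to 0.959%). Windows beside each other share peaks, so these counting intervals are too narrow.

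The remaining chromosomes lay between these. Chromosomes 7, 5, 10 and 2 had 26, 22, 17 and 27 member windows, or 1.10, 1.08, 1.08 and 1.02%. Chromosomes 6, 1 and 8 had 19, 27 and 16, or 0.829, 0.788 and 0.777%. On the sequences outside the 12 chromosomes in the lists, ChrSy and ChrUn, 0 windows were marked in slr1 alone.

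On chromosomes 11 and 12 the slr1-only regions were of both kinds, with 15 attached ones on each and 19 and 14 separate ones. Windows marked only in the GA-labelled lists also had their highest shares there, at 0.298% on chromosome 11 and 0.338% on chromosome 12, but these were 7 windows each. Those marked only in the control-labelled lists made up 1.06% on chromosome 11 and 0.663% on chromosome 12, and their highest share was 1.18% on chromosome 6.

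**Figure D5:**
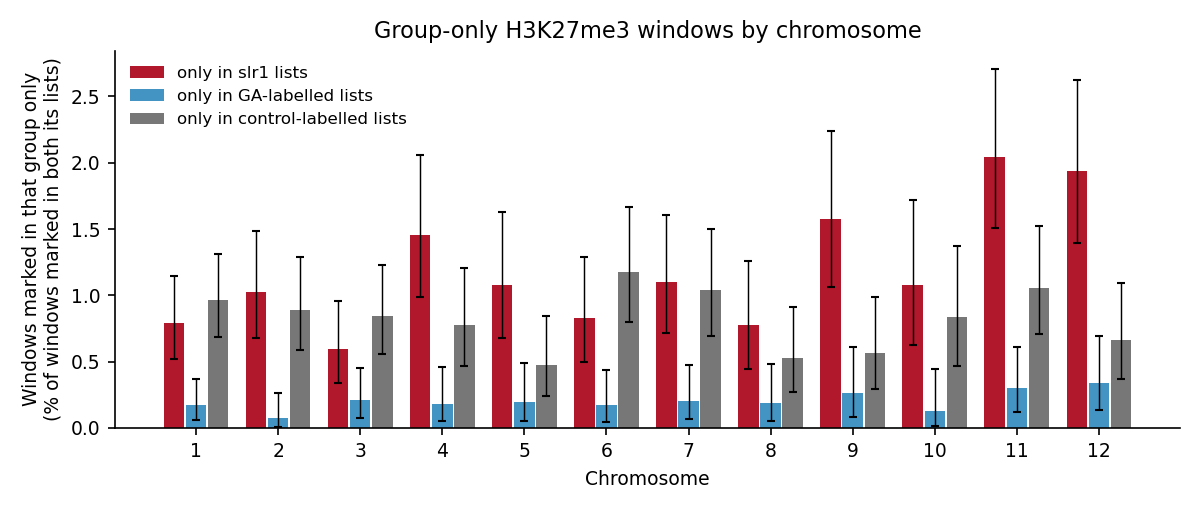
Windows marked only in the slr1, only in the GA-labelled or only in the control-labelled lists, as a percent of the windows marked in both lists of that group, by chromosome; whiskers are 95% exact binomial intervals, which cover counting error only. The slr1 bars were tallest on chromosomes 11 and 12, at 2.04 and 1.94%.

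Along the chromosomes most regions had no other slr1-only region within 50000 bp. Cut into blocks of 1 Mb, 156 of the 379 blocks with a window marked in both slr1 lists held a member. Of these, 83 held 1 member window and 10 held 5 or more. The median distance between a region and the next slr1-only region was 186000 bp, and 94 of the 272 regions had another within 50000 bp. The block with the most was on chromosome 2 at 17000001 to 18000000, with 16 member windows of 163 marked (9.82%) in 8 regions. Next came chromosome 12 at 19000001 to 20000000, with 12 of 182 (6.59%). On chromosome 11, the block at 5000001 to 6000000 had 5 of 50 (10.0%), in 3 regions that were all separate.

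The cluster with the most member windows lay on chromosome 2. Between 17264001 and 17325000, a stretch of 61 kb, 5 regions with 13 member windows followed each other. Peaks covered 48.1 and 46.1 kb of it in slr1, against 21.4 and 22.6 kb in the GA-labelled and 29.8 and 30.9 kb in the control-labelled lists. They were 6 and 6 peaks in slr1, 10 and 10 in the GA-labelled lists, and 8 and 8 in the control-labelled lists. In slr1 the stretch was thus covered by fewer and longer peaks that ran across gaps of the other lists. It was singled out for its slr1-only windows, so the higher slr1 cover follows in part from the choice.

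The first region of this cluster, at 17269001 to 17274000, was 1 of the 2 regions of 5000 bp. It lay under slr1 peaks at 17269252 to 17280979 and 17269695 to 17280930, with folds of 5.53 and 4.37. Inside that span the GA-labelled lists had peaks at 17275019 to 17278602 and 17274829 to 17278301, with folds of 3.92 and 4.25. The control-labelled lists had peaks at 17274149 to 17278663 and 17274194 to 17278425, with folds of 4.37 and 4.43. So slr1 library 1 had the highest fold there, while slr1 library 2 lay above both GA-labelled values and just below both control-labelled ones.

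On its right the same slr1 peaks ran on into the second region, at 17279001 to 17282000, where they ended at 17280979 and 17280930 before a further pair of slr1 peaks began. The third region, at 17292001 to 17295000, was separate. It lay under slr1 peaks of 2248 and 2026 bp with folds of 2.79 and 2.30, in a gap between domains of the other lists. The fourth region, at 17306001 to 17307000, was bridging: slr1 peaks at 17301287 to 17319679 and 17301301 to 17319526, with folds of 5.29 and 4.19, ran over it and over several peaks of each of the other lists. The fifth, at 17319001 to 17320000, was the right end of those peaks.

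On chromosome 12, a shorter stretch of 23 kb between 19292001 and 19315000 held 3 regions with 8 member windows, more per kb than the cluster on chromosome 2. Peaks covered 17.5 and 12.4 kb of it in slr1, against 3.34 and 3.78 kb in the GA-labelled and 3.62 and 4.38 kb in the control-labelled lists. Here too the higher slr1 cover follows in part from the rule that defined the members. The longest region there, at 19297001 to 19302000, was separate, and its peaks had folds of 2.70 and 2.35 and a −log10 q of 2.77 and 1.74. The next, at 19304001 to 19306000, was also under weak peaks, with a fold of 2.53 in slr1 library 2. The region at 19309001 to 19310000 was the left end of a strong domain, which began at 19309358 and 19309034 in slr1 with folds of 5.86 and 4.27. In the GA-labelled lists the main peak of that domain began at 19312552 and 19312211, and in the control-labelled lists at 19312190 and 19312200, with smaller peaks before it.

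The other long regions were mostly separate and weak. Of the 8 regions of 3000 bp or more, 5 were separate, 2 were attached and 1 was attached in 1 list. Of the 27 regions of 2000 bp, the 2 with the highest lower fold complete the 10 longest, 1 of them separate and 1 attached. On chromosome 4, regions of 3000 bp at 5952001 to 5955000 and 9276001 to 9279000 lay 14791 and 12479 bp from another peak, with folds of 2.72 and 2.55 at the first and 2.78 and 2.47 at the second. On chromosome 1, the region at 19333001 to 19336000 had folds of 2.62 and 2.36 and lay 18996 bp from another peak. On chromosome 7, the region at 3756001 to 3758000 was an edge under peaks of 4405 and 3456 bp, with folds of 3.83 and 3.51.

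The surroundings of attached and separate regions held fewer called peak bases of the other groups than those of slr1-marked windows at large. Bases were summed over the region or window itself and the 50 kb on both sides. The GA-labelled peaks covered a median of 6.33 and 7.41 kb around attached regions, and the control-labelled peaks 6.87 and 8.11 kb. Around separate regions these medians were 5.48 and 6.02 kb in the GA-labelled and 5.77 and 6.27 kb in the control-labelled lists. Around regions attached in 1 list they were 10.7 and 10.5 kb in the GA-labelled and 11.1 and 11.7 kb in the control-labelled lists. Around all windows marked in both slr1 lists they were 11.7 and 12.6 kb in the GA-labelled and 13.1 and 14.3 kb in the control-labelled lists. The rule leaves out windows inside peaks of these groups, which by itself lowers the values around members. A member adds 0 bp to its own sum, while a window marked in slr1 at large can add its own peak bases. Of the separate regions, 6 had no peak of any of the 4 lists within 50 kb.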

How the data were processed

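Peaks of H3K27me3 were deposited by the authors as 1 broad peak list per library, with replicates kept apart. The submitters' processing notes name Trim Galore 0.6.6, Bowtie2 2.4.4, deepTools 3.5.0 and MACS2 2.2.7.1, without saying what each did. Which genome build and which background library were used for calling was not given in the sources used here. Each deposited peak has a fold enrichment (a ratio), a −log10 p, a −log10 q and a display score deposited by the authors; the fold and −log10 q served to describe and rank peaks, and −log10 q to limit the slr1 peaks in 2 alternatives. Folds of different lists are set side by side as values, and their scales may differ. No depth can be read from such lists.

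Windows, joined regions, classes and distances were computed with Python 3.11.15, pandas 2.3.3 and scipy 1.17.1, and the code was tested on simulated data. Covered bases are those of peaks, and intervals are exact (Clopper-Pearson, 95%). Groups came from the labels. No comparison was tested, since the rule used all 6 lists. The members, lists and measures were chosen with earlier results of these data known. Regions named are the 10 longest (equal lengths ordered by fold), the 10 with the highest fold (lower of the 2 slr1 values), the counts by chromosome and the densest 1 Mb; separate regions of high fold, the stretches drawn and the classes were added after their values were seen. Positions count from 1. The reference gene table used another assembly and no genome was at hand, so no genes, sequences or RNA values are given for the regions. The alternatives covered the minimum cover, window size and start, peak strength, overlap and each library.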

Additional observations from a re-analysis of the deposited data

How the results depend on the processing

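The numbers of members depended on the settings, and 43 of 65 alternative values moved beyond their limits. These values are counts, shares and folds, which have no direction that could change. With at least 100 bp in both slr1 lists there were 398 windows (1.34%), and with at least 500 bp 101 windows in 86 regions (0.513%). Windows of 500 bp gave 683 in 503 regions (1.43%), and windows of 2000 bp gave 128 in 117 regions (0.802%). Windows shifted by 500 bp gave 322 in 274 regions, but the shifted windows held only 40.9% of the bases of the members, so the count kept its size while many of the windows were others. Slr1 peaks with a −log10 q of at least 3 left 68 windows in 60 regions (0.321%). A −log10 q of at least 2, added after seeing the data, left 128 in 111 regions (0.520%), of which 31 were separate. Allowing up to 200 bp in the other lists gave 480 windows in 424 regions (1.74%), and asking for no other peak within 1000 bp left 155 in 126 regions (0.562%). Without windows, a setting also added later, 661 stretches of at least 200 bp lay in both slr1 lists and no other, and 38.6% of them met a member. The share of regions near another peak was 69.5% within 2000 bp. The length-weighted mean fold was 3.43, against 2.53 for the mean of the 2 libraries' medians.

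Leaving out 1 library gave 354 to 2286 windows, 298 to 1902 regions, 1.28 to 6.34% of marked windows, 111 to 830 attached regions and 140 to 1072 separate regions. The count moved by over 1.5 times without slr1 library 2 (2286 windows), without slr1 library 1 (496) and without control-labelled library 2 (516); the last gave 447 regions, of which 185 were attached and 198 separate. Without 1 of the other 4 lists, the attached share was 37.2 to 41.4% and the separate share 44.3 to 48.0%. With 1 slr1 list no region can be attached in 1 of 2 lists, so the shares there, 40.5 and 43.6% attached and 59.5 and 56.4% separate, are not the same quantity. With the stronger slr1 peaks 64.0% were attached and 27.9% separate. That limit acts on whole peaks, and those over attached regions include a shared part. No paired analysis was possible because the results come from no test. The RNA alternatives were not run, since no RNA value could be placed at a region. Depth is not in the lists, so whether a window lacked the mark or missed the threshold in a library was not tested.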

Other observations

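The other patterns over the same windows give the size of the slr1-only set. Windows marked in both lists of all 3 groups numbered 24279. Marked in both slr1 and both GA-labelled lists, with 0 bp in the control-labelled ones, were 20 windows, and 223 were marked in both slr1 and both control-labelled lists with 0 bp in the GA-labelled ones. Those in both GA-labelled and both control-labelled lists with 0 bp in slr1 numbered 542, more than the 319 marked in slr1 alone. The names inside the GA-labelled and control-labelled lists are exchanged against the labels, and which of the 2 is right was not tested, so no direction is read from the counts of 20 and 223.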
